A study of Nannochloropsis oceanica with 18 samples.

Results

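Lysine crotonylation (Kcr) was compared with acetylation of histone H3 at lysine 27 (H3K27ac) in nitrogen-replete cells of the oleaginous marine microalga Nannochloropsis oceanica, strain IMET1. The comparison rests on 4 of the 18 chromatin immunoprecipitation sequencing (ChIP-seq) libraries of the series, namely 2 Kcr libraries and 2 H3K27ac libraries of the condition named C0, and on all 3803 regions over which the authors tabulated every library. The C0 cells of both marks were of this strain, with no further genotype in the labels, and were harvested in the logarithmic phase from nitrogen-replete f/2 medium under continuous light. The same marks were also measured in cells moved to nitrogen-free medium for 1 day (N1) or for 2 days (N2), and a further mark, dimethylation of H3 at lysine 36 (H3K36me2), in all 3 conditions. No tabulated region was left out by its values: the difference between the marks was computed for every region. Regions named singly below were picked by their values.

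Acetylation and crotonylation both neutralise the positive charge of lysine and both are generally found on active chromatin. H3K27ac is a textbook mark of active promoters and, in animals, of active enhancers. Crotonylation carries a longer, unsaturated acyl chain taken from crotonyl-CoA. In animals and yeast, acetyl-lysine is bound mainly by bromodomains, whereas YEATS domains bind crotonyl-lysine well, so that the 2 marks can be read by different proteins. The Kcr label gives no residue, so the signal may come from any crotonylated lysine of the chromatin. For both marks the labels and the methods name different antibodies, and in the labels H3K27ac and H3K36me2 share a product code, so which antibodies were used cannot be told here.

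Each region has a coverage signal per library, called the pileup, and the local background expected there, called lambda. How the pileup was taken over a region, for example as a maximum or at a single position, is not stated. Its part in the differences by region width below was not tested. Levels are given below as the ratio of pileup to lambda, and a difference between marks as log2 of the Kcr ratio minus log2 of the H3K27ac ratio, so that a positive value means more Kcr. The regions lay on 30 chromosomes, did not overlap, and had a median width of 3004 bp (range, 379 to 71931 bp). All pileups were whole multiples of a step that differed between libraries. The inverse of that step, read as depth, was 1.95 and 2.17 M fragments for the Kcr libraries and 4.55 and 4.97 M fragments for the H3K27ac libraries. The Kcr libraries were thus the shallower ones in C0. Their median ratios over all regions were 2.52 and 2.55, against 2.55 and 2.55 for H3K27ac. The background differed little between the marks: log2 lambda of Kcr minus that of H3K27ac had a median of 0.14 and an SD over regions of 0.025.

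Replicate libraries correlated across regions at r = 0.982 for Kcr and r = 0.993 for H3K27ac, as a description over 3803 regions that share library and background. Both pairs varied less than independent counts (chi-square per degree of freedom, 0.667 for Kcr and 0.774 for H3K27ac). The same held for the other pairs of distinct columns in the series, at 0.674 to 0.773, and the steps of the paired libraries differed, so they were kept as separate libraries. The study calls the replicates biological, and the labels do not say that they came from separate cultures. The p-values below therefore cover only the variation between libraries, and this may be technical. With pairs less variable than independent counts, these p-values may also be too small.

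The marks were found largely in the same regions. A ratio of at least 2 in both libraries was reached by Kcr in 2409 of all 3803 regions and by H3K27ac in 2285. With both marks, 2172 regions reached it, which is 90.2% of the Kcr regions and 95.1% of the H3K27ac regions. Across all regions the mean enrichments of the marks correlated at r = 0.95. Within the 5 upper deciles of mean enrichment the correlation was 0.32, although replicates of one mark still correlated there at 0.81 for Kcr and 0.96 for H3K27ac. This cut was made on the mean of both marks, which by itself lowers the correlation between them. The values are therefore not fully alike. Among the 381 of 3803 regions with the highest ratios of each mark, 155 were shared (40.7%). Regions with much of one mark thus mostly carried the other, but the order of the strongly marked regions differed in part between the marks.

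In the fit of limma to the 4 libraries (limma-trend, Benjamini-Hochberg adjusted p under 0.05 over all regions), the marks differed in 2080 regions (54.7% of 3803), of which 945 had more Kcr (24.8%) and 1135 less Kcr (29.8%). The median difference over all regions was 0.01. Since Kcr ratios were less spread (SD of log2 enrichment, 1.13 and 1.14 for Kcr, 1.37 and 1.38 for H3K27ac), the libraries were also set to equal medians and spreads. On that scale 1653 regions differed (43.5%), 649 with more Kcr (17.1%) and 1004 with less (26.4%). The same direction was called on both scales in 1464 regions (38.5%), 581 with more Kcr (15.3%) and 883 with less (23.2%). No region was called in opposite directions, and 1534 were called on neither scale. These 581 and 883 regions are the sets described below. All 4 libraries separated by mark on both scales in 2317 regions (60.9%), 1027 with Kcr above (27%) and 1290 with Kcr below (33.9%). Without H3K27ac replicate 1 or 2 the count with equal medians and spreads was 913 or 917, and the count on both scales 880 or 878.

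Large differences were few. A difference of at least 2-fold that also passed the test was found in 127 regions (3.34%), 67 with more Kcr (1.76%) and 60 with less Kcr (1.58%), as deposited. With equal medians and spreads it was found in 78 regions (2.05%), 9 with more (0.237%) and 69 with less (1.81%).

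**Figure D1:**
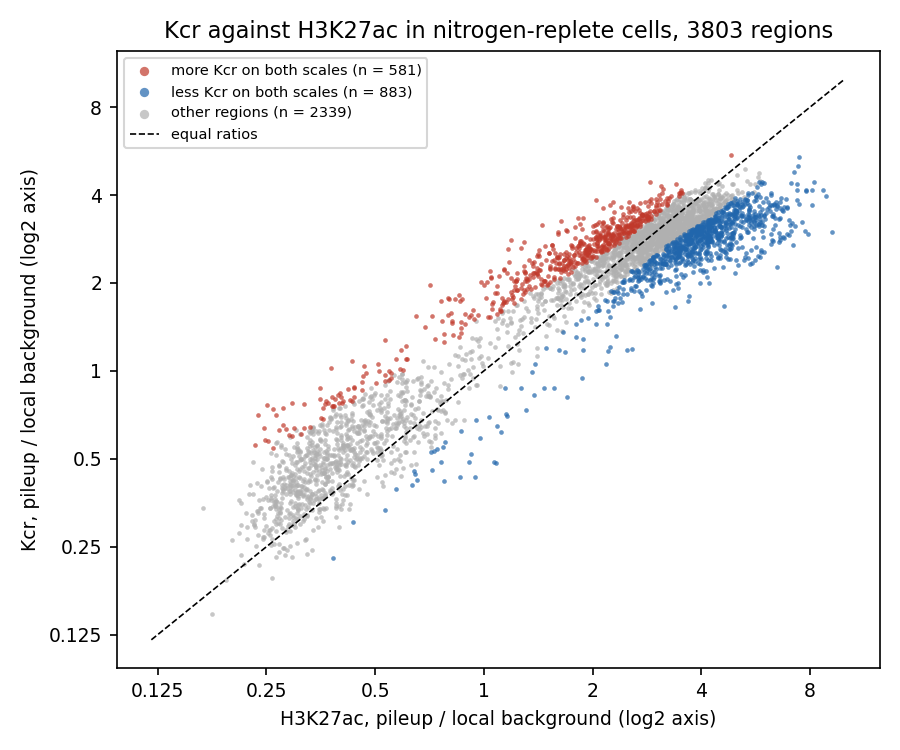
Kcr ratio (y axis) against H3K27ac ratio (x axis) of pileup to local background in C0, each the geometric mean of 2 libraries, with 1 point per region and log2 axes. The 581 regions with more Kcr on both scales (red) lie above the dashed line of equal ratios, the 883 with less Kcr (blue) below it, and the highest points reach 5.46 for Kcr and 9.18 for H3K27ac.

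Kcr flattened out where H3K27ac was strongest. The highest ratio in any C0 library was 5.65 for Kcr and 9.31 for H3K27ac. A ratio of at least 4 in both libraries was found in 46 regions for Kcr and 548 for H3K27ac, of at least 5 in 2 and 189, and of at least 6 in 0 and 67. When regions were classed by their H3K27ac ratio, the median Kcr ratio was 2.67 in the 866 regions with H3K27ac of 2 to 3, where the median H3K27ac ratio was 2.56. It was 3.03 against 3.46 in the next class of 860 regions, 3.27 against 4.35 in the 396 regions with H3K27ac of 4 to 5, and 3.40 against 5.43 in the 135 regions of 5 to 6. In the 71 regions with an H3K27ac ratio of at least 6 the medians were 3.59 for Kcr and 6.64 for H3K27ac. All 71 were called with less Kcr on both scales, as were 122 of the 135 in the class before. These classes were cut on one of the marks compared, so that part of the difference within them follows from the choice.

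Deciles of the mean enrichment of all 4 libraries gave the same order. That mean was taken as deposited, where H3K27ac was the more spread mark (SD over regions, 1.37 against 1.13 for Kcr). A falling difference over these deciles therefore follows in part from the spreads. In the highest decile the median ratios were 3.61 for Kcr and 5.00 for H3K27ac, and 245 of 381 regions had less Kcr on both scales while 2 had more. In the 4th decile the medians were 2.08 for Kcr and 1.74 for H3K27ac, and 155 of 380 regions had more Kcr while 37 had less. In the lowest decile, at 0.378 for Kcr and 0.300 for H3K27ac, 5 regions had more Kcr and 2 had less on both scales. The scales disagreed there. As deposited, 89 regions had more Kcr and 2 less, and with equal medians and spreads 5 had more and 57 less. Among calls shared by both scales, more Kcr was thus found mostly at intermediate levels and less Kcr at high levels. The highest pileup in the 2 libraries was 114 and 121 for Kcr (222 and 262 steps), against 228 and 234 (1036 and 1165 steps) for H3K27ac, and the part of depth in this difference was not tested.

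**Figure D2:**
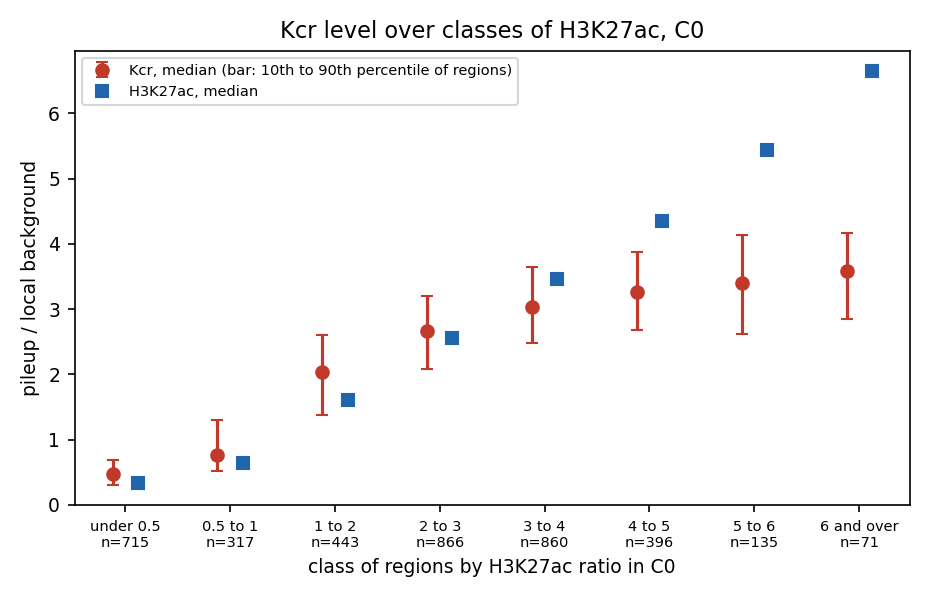
Median ratio of pileup to local background of Kcr (red circles, bars from the 10th to the 90th percentile of regions) and of H3K27ac (blue squares) over 8 classes of regions by their H3K27ac ratio in C0. Kcr is above H3K27ac in the 4 lower classes and reaches 3.59 in the highest class, where H3K27ac is 6.64.

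The regions with less Kcr were wide and strongly acetylated. Their median width was 6310 bp, against 3004 bp for all regions. At least 12 kb wide were 222 of the 883, as were 479 of all 3803 regions. They made up 23.2% of the regions and 38.3% of all base pairs in the regions. Their median ratios were 2.79 for Kcr and 4.04 for H3K27ac, so that in absolute terms they carried slightly more Kcr than the median region (2.54). The 8 named from this set had the most negative differences with equal medians and spreads among regions above the median of mean enrichment.

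In peak3690 (chromosome 9, 107001 to 115486, 8486 bp) the Kcr ratios were 1.63 and 1.70, against 4.57 and 4.66 for H3K27ac. The difference was -1.47 ± 0.08 (SE, n = 2 libraries per mark) as deposited and -1.45 ± 0.08 with equal medians and spreads (limma, adjusted p = 1.0e-06 with equal medians and spreads). This region was thus under the median of Kcr while well above that of H3K27ac, and its libraries did not overlap between marks.

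The highest H3K27ac ratio of all regions was found in peak3625 (chromosome 8, 916027 to 924317, 8291 bp). Its Kcr ratios were 2.98 and 3.02, against 9.04 and 9.31 for H3K27ac, and the difference was -1.61 ± 0.07 as deposited and -1.41 ± 0.07 with equal medians and spreads (limma, adjusted p = 7.0e-07). The pileups themselves were 83.6 and 84.2 for Kcr, against 228 and 234 for H3K27ac, over similar backgrounds of 27.8 and 24.7 in the first library of each mark. First of all regions by H3K27ac, peak3625 ranked 1109 by Kcr.

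A similar gap was seen in peak2134 (chromosome 24, 592986 to 597825), where the ratios were 2.26 and 2.29 for Kcr, against 6.45 and 6.47 for H3K27ac. The next 3 regions were wider and had still more H3K27ac. In peak415 (chromosome 11, 782447 to 801163, 18717 bp) the Kcr ratios were 2.70 and 2.68, against 7.17 and 7.15 for H3K27ac. In peak1526 (chromosome 2, 515345 to 529616) they were 2.89 and 2.99, against 7.87 and 7.93. In peak1060 (chromosome 16, 744111 to 766683, 22573 bp) they were 2.93 and 3.07, against 8.30 and 7.25. The Kcr ratios of these 4 regions all lay between 2.26 and 3.07, near the median of all regions, whereas their H3K27ac ratios were all above 6.

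The remaining pair were peak2271 (chromosome 26, 80819 to 83428), with Kcr ratios of 2.08 and 2.62 against H3K27ac ratios of 5.60 and 5.46, and peak245 (chromosome 10, 563094 to 587853, 24760 bp), with 2.46 and 2.33 against 5.62 and 5.68. Across the 8 regions the differences with equal medians and spreads ran from -1.45 to -1.14, and every one passed the test on both scales. The 10 regions with the highest H3K27ac ratio were all called with less Kcr on both scales. They belong to the 71 regions with a ratio of at least 6, so that this follows in part from the choice. These 10 regions were not poor in Kcr: in peak3298 (chromosome 6, 921281 to 940020) the mean Kcr ratio was 3.97, against 8.86 for H3K27ac.

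The regions with more Kcr were narrow and moderately acetylated. Their median width was 1546 bp, and 20 of the 581 were at least 12 kb wide, as were 479 of all 3803 regions. They made up 15.3% of the regions and 8.60% of the base pairs. Their median ratios were 2.59 for Kcr and 1.87 for H3K27ac. Thus their Kcr was near that of the median region (2.54), and their H3K27ac was below it (2.55).

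The largest difference above the median of mean enrichment was in peak3473 (chromosome 7, 985995 to 987321, 1327 bp). Its Kcr ratios were 3.88 and 3.80, against 1.94 and 2.15 for H3K27ac, and the difference was 0.91 ± 0.08 (SE, n = 2 libraries per mark) as deposited and 0.95 ± 0.08 with equal medians and spreads (limma, adjusted p = 1.1e-05). This region had about the Kcr of the highest decile with less H3K27ac than the median region.

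In peak236 (chromosome 10, 459860 to 468998, 9139 bp) the Kcr ratios were 3.72 and 3.51, against 2.22 and 2.06 for H3K27ac. In peak542 (chromosome 12, 647229 to 652842) they were 3.89 and 3.52, against 2.25 and 2.21. In peak3601 (chromosome 8, 621553 to 624375), which had the most Kcr of the 8 named here, they were 4.62 and 4.28, against 2.92 and 2.85. In each of them the lower Kcr library was well above the higher H3K27ac library.

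The spread was larger in peak3122 (chromosome 5, 586460 to 590365), where the Kcr ratios were 4.01 and 3.57, against 2.74 and 1.90 for H3K27ac. Its difference of 0.79 ± 0.13 with equal medians and spreads passed the test nonetheless (limma, adjusted p = 0.00080). The narrow regions peak871 (chromosome 15, 124708 to 125974), peak2529 (chromosome 28, 508885 to 510029) and peak3337 (chromosome 6, 1237664 to 1238778) had differences of 0.66 each on that scale, with Kcr ratios of 2.96 to 3.80 and H3K27ac ratios of 2.00 to 2.52. In all 8 regions both Kcr libraries lay above both H3K27ac libraries.

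**Figure D3:**
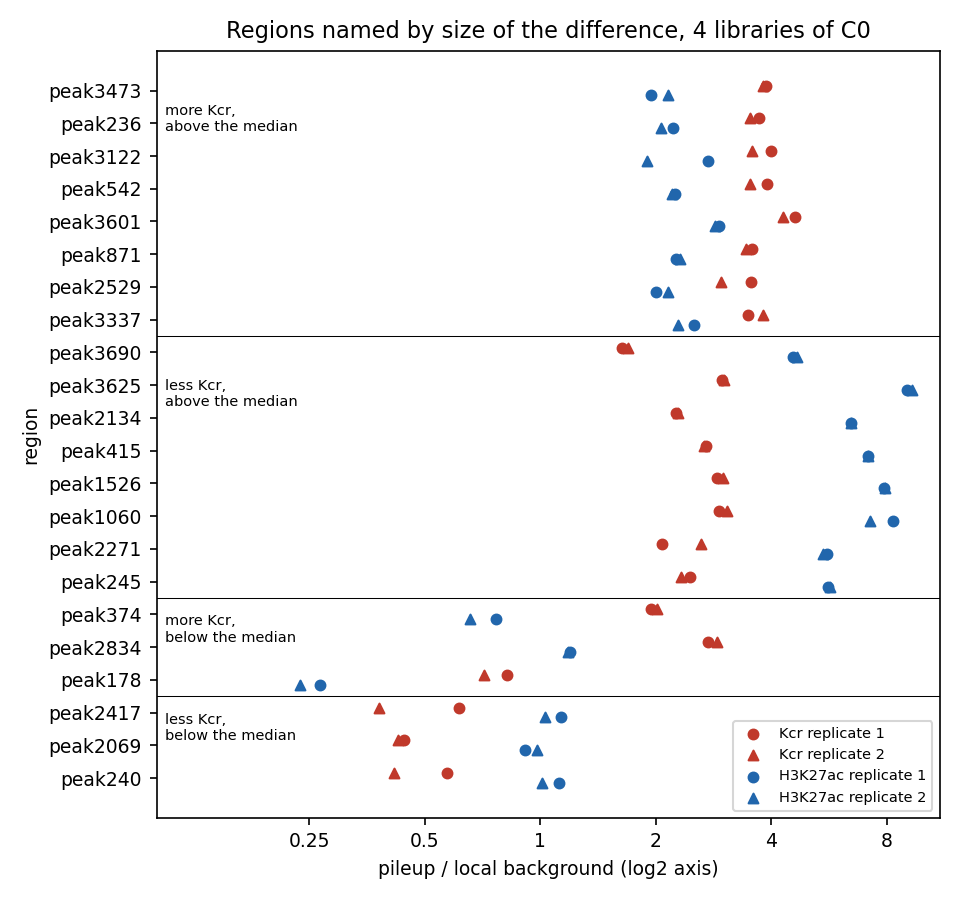
Ratio of pileup to local background (log2 axis) in the 2 Kcr libraries (red) and the 2 H3K27ac libraries (blue) of C0 for the 22 regions named by the size of their difference, circles for replicate 1 and triangles for replicate 2. The libraries of the marks do not overlap in any of the 22 regions, as the rule for naming required. In the 8 with less Kcr above the median, Kcr lies between 1.63 and 3.07 and H3K27ac between 4.57 and 9.31.

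Below the median of mean enrichment, the largest differences on the side of Kcr were in narrow regions. In peak374 (chromosome 11, 402724 to 403311, 588 bp) the Kcr ratios were 1.94 and 2.01, against 0.768 and 0.657 for H3K27ac, a difference of 1.47 ± 0.13 as deposited and 1.28 ± 0.13 with equal medians and spreads (limma, adjusted p = 2.7e-05). This region was enriched for Kcr over its background and depleted of H3K27ac. In peak178 (chromosome 1, 1671895 to 1672890) both marks were below background, with Kcr ratios of 0.819 and 0.715 against 0.267 and 0.236 for H3K27ac.

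The largest differences the other way below the median were in peak2417 (chromosome 27, 429822 to 430766), peak2069 (chromosome 24, 58802 to 59964) and peak240 (chromosome 10, 515288 to 517692). In peak2069 the Kcr ratios were 0.442 and 0.425, against 0.912 and 0.979 for H3K27ac. In all 3 regions Kcr was below 0.62 and H3K27ac between 0.91 and 1.14, so that H3K27ac was near background and Kcr was below it. The 3 regions carried H3K36me2 at ratios of 1.47, 1.63 and 1.41. The 2 H3K36me2 columns of C0 were identical, so that all values of this mark here rest on 1 library.

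Regions carrying one mark without the other were rare. A ratio of at least 2 in both libraries of Kcr and under 1.5 in both of H3K27ac was found in 34 regions, and the reverse in 6. All 40 were called in that direction on both scales, which the cut on the same libraries made likely beforehand. The 34 regions had a median width of 1141 bp, and 30 were narrower than 3 kb, as were 1901 of all 3803 regions. Of the 34, 26 had an H3K36me2 ratio under 1, as did 5 of the 6 and 1218 of all 3803 regions.

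The clearest of the 34 was peak2834 (chromosome 30, 328858 to 329789, 932 bp), with Kcr ratios of 2.74 and 2.89 against 1.20 and 1.18 for H3K27ac and a difference of 1.24 ± 0.10 as deposited (limma, adjusted p = 3.9e-08). In peak977 (chromosome 16, 71877 to 74600) the ratios were 2.49 and 2.75 for Kcr, against 1.27 and 1.07 for H3K27ac. In peak3135 (chromosome 5, 745559 to 746613) they were 2.71 and 2.82, against 1.20 and 1.39. The lowest of these Kcr ratios, 2.49, was near that of the median region (2.54), while H3K27ac was close to background. Of the 6 regions with H3K27ac alone, peak604 (chromosome 13, 80771 to 87159) had Kcr ratios of 1.08 and 1.31 against 2.52 and 2.62 for H3K27ac.

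A few of the most strongly marked regions were called on neither scale, although their calls depended on the setting. In peak2824 (chromosome 30, 272518 to 276101) the Kcr ratios were 4.70 and 4.70, against 5.20 and 4.84 for H3K27ac, and the difference was -0.09 ± 0.07 as deposited and 0.10 ± 0.07 with equal medians and spreads. In peak391 (chromosome 11, 547535 to 551675) the ratios were 4.40 and 4.33, against 4.84 and 4.93. In peak2744 (chromosome 3, 1165477 to 1172696) they were 4.46 and 5.44, against 5.17 and 5.38. These 3 regions had the highest mean enrichment among those called on neither scale. When only regions above the median of mean enrichment were fitted, all 3 passed with more Kcr on the scale of equal medians and spreads (0.42 in peak2744, 0.39 in peak2824 and 0.28 in peak391, limma, adjusted p = 0.0091, 0.0015 and 0.0073), and peak391 passed with less Kcr as deposited (adjusted p = 0.043). Without Kcr replicate 1, more Kcr was called in peak2744 with equal medians and spreads (0.26) and less Kcr in peak391 as deposited (-0.17), and without Kcr replicate 2 less Kcr was called in peak2744 as deposited (-0.24). In the region of highest Kcr, peak2709 (chromosome 3, 851924 to 853431), the ratios were 5.65 and 5.28 for Kcr, against 4.85 and 4.82 for H3K27ac, and more Kcr was called on both scales (limma, adjusted p = 0.036 as deposited and 0.0013 with equal medians and spreads).

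The balance between the marks followed region width. Among the 535 regions narrower than 1 kb, 110 had more Kcr on both scales (20.6%) and 29 less (5.42%). Among the 479 regions of at least 12 kb, 20 had more Kcr (4.18%) and 222 less (46.3%). The 3 classes in between lay in order, with more Kcr in 19.99%, 13.8% and 10.9% and less Kcr in 15.5%, 23.6% and 36.8% of regions. The median difference was 0.32 in the narrowest class and -0.27 in the widest as deposited, and -0.007 and -0.19 with equal medians and spreads. Below 1 kb the calls depended on the scale. As deposited, 40% of these regions had more Kcr and 6.54% less, and with equal medians and spreads 20.9% and 16.3%. Since narrow regions were also weakly marked (median ratios, 0.726 for Kcr and 0.576 for H3K27ac below 1 kb), the classes were also taken within the 5 upper deciles of mean enrichment, a cut added after the values had been seen. There, the median difference as deposited was -0.04 in 38 regions below 1 kb, and then -0.11, -0.18, -0.25 and -0.29 with rising width. The share with less Kcr followed the same order there, at 15.8%, 29.1%, 34.9%, 43.4% and 47.5%, whereas the share with more Kcr did not, at 7.89%, 15.5%, 10.5%, 6.90% and 3.55%. H3K27ac still moved with width in this cut (median ratio, 2.98 in the narrowest and 3.80 in the widest class), and its part in the order was not tested.

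**Figure D4:**
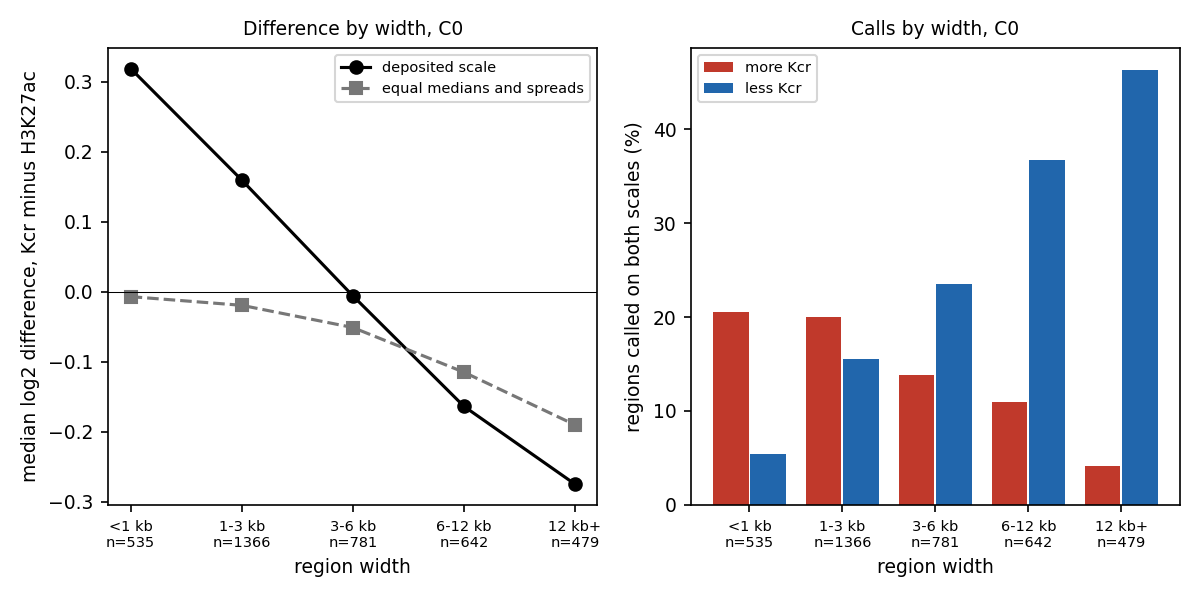
Left, median log2 difference between Kcr and H3K27ac in C0 over 5 classes of region width, as deposited (circles) and with equal medians and spreads (squares). Right, percentage of the regions of each class called on both scales with more Kcr (red) or less Kcr (blue): less Kcr is called in 5.42% of the narrowest and 46.3% of the widest regions.

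The sets also differed in H3K36me2, a mark measured apart from the 4 libraries, with 1 distinct library in C0. Its median ratio was 0.967 in the regions with more Kcr, 1.13 in those with less Kcr, and 1.17 in all regions. It was at least 1 in 47.3% of the regions with more Kcr and in 68.3% of those with less, against 68.0% of all regions. In the lowest 2 deciles of H3K36me2, more Kcr was called in 26.5% and 30.5% of regions, against 8.40% in the highest decile. Less Kcr was called in 18.4% and 20% of regions there, against 11.8% in the highest decile and 35.3% in the 4th. The highest decile was weakly marked, with median ratios of 0.818 for Kcr and 0.655 for H3K27ac. The regions of the lowest decile were narrow, with a median width of 1192 bp, so that H3K36me2 and width moved together here. Within the 5 upper deciles of mean enrichment the shares went in mixed directions: less Kcr was called in 44.8% of regions where the H3K36me2 ratio was under 0.6 and in 28.3% where it was at least 1.4, with median differences of -0.28 and -0.15, and more Kcr in 12.1% and 8.47%.

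Position on the chromosome went with smaller differences. Within 50 kb of the outermost region edge, 80 of 489 regions had more Kcr (16.4%) and 87 less (17.8%), and at 200 kb or more 284 of 1933 had more (14.7%) and 493 less (25.5%). The regions near the ends were also narrower (median, 2018 and 4550 bp) and less acetylated (median H3K27ac ratio, 1.93 and 2.82). Every chromosome held regions of both sets. The share with less Kcr ran from 14.3% on chromosome 19 to 32.8% on chromosome 2, and the share with more Kcr from 7.78% on chromosome 22 to 21.5% on chromosome 11.

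Neighbouring regions were only weakly alike. Over 3773 neighbouring pairs the differences with equal medians and spreads correlated at r = 0.106, and 212 pairs joined a region with more Kcr to one with less, while 99 joined 2 with more and 215 joined 2 with less. The longest run with more Kcr was 5 regions on chromosome 8 (peak3648 to peak3652, 1185070 to 1209126). It held both marked and unmarked regions, since the Kcr ratios of peak3648 were 3.89 and 3.68 and those of peak3649 0.935 and 0.933. The longest run with less Kcr was also of 5 regions, on chromosome 18 (peak1294 to peak1298, 751493 to 772911), where peak1298 had Kcr ratios of 3.37 and 3.22. Neither run held under every setting. With all distinct libraries in the fit and equal medians and spreads, peak3649 to peak3652 (limma, adjusted p = 0.14, 0.051, 0.19 and 0.13) and peak1294 and peak1297 (0.11 and 0.11) lost their calls, and without H3K27ac replicate 1 or 2 of C0 both runs were also broken.

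To ask whether these differences were particular to replete cells, the same contrast was taken at N1 and N2 and the change was tested as an interaction, with the 11 distinct libraries of both marks set to equal medians and spreads. The Kcr libraries of N2 held identical columns and entered once. For N1 and N2 the cells were also washed, moved to new medium and grown in dimmer light, and these steps cannot be told apart from nitrogen. The spread of Kcr relative to that of H3K27ac was 0.82 in C0, 0.57 at N1 and 0.87 at N2, which makes the scale matter most at N1.

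Between C0 and N1 the interaction passed the test in 910 regions (limma, 23.9%): the difference was higher in C0 in 152 (4%) and lower in C0 in 758 (19.9%). On the deposited scale the balance turned, with 1393 regions higher and 319 lower in C0. No direction over all regions can therefore be given for N1. Between C0 and N2 it passed in 234 regions (6.15%), 186 higher (4.89%) and 48 lower (1.26%) in C0, and the deposited scale gave 273 and 171. Leaving out 1 library moved both counts: without H3K27ac replicate 1 or 2 of C0 they were 503 and 514 for N1 and 119 and 111 for N2. Without Kcr replicate 1 or 2 of C0 they were 628 and 599 for N1 and 129 and 135 for N2, and without H3K27ac replicate 1 of N1 the N1 count was 575.

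With equal medians and spreads, the marks differed in 1054 regions at N1 (27.7%) and 1144 at N2 (30.1%). The regions with less Kcr in C0 often had less Kcr at N2 as well. At N2, 466 of the 883 were called with less Kcr (52.8%), against 23.7% of all regions, and 11 with more. At N1, 141 were called with less Kcr (15.97%, against 7.49% of all regions) and 171 with more (19.4%, against 20.2%). Of the 581 regions with more Kcr in C0, 135 had more at N2 (23.2%, against 6.39% of all regions), and 129 at N1 (22.2%, against 20.2%). More Kcr was called in all 3 conditions in 41 of the 581 (7.06%), against 68 of all regions called with more at both N1 and N2 (1.79%), and less Kcr in 81 of the 883 (9.17%), against 111 of all regions (2.92%). Of the 34 regions with Kcr alone in C0, Kcr was above H3K27ac without overlap of libraries in 12 at N1 (35.3%, against 24.9% of all regions). It was below H3K27ac in 12 (35.3%, against 62.9% of all regions), with median ratios of 1.17 for Kcr and 1.19 for H3K27ac. At N2 Kcr was above in 31 of them (91.2%, against 28.4% of all regions) and below in 2 (5.88%, against 52.1%). The median ratios there were 1.63 for Kcr and 1.21 for H3K27ac.

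Single regions followed different courses. In peak3690 the Kcr ratios were 1.63 and 1.70 in C0, 5.10 and 5.36 at N1, and 2.81 at N2, and the H3K27ac ratios were 4.57 and 4.66 in C0, 9.29 and 9.69 at N1, and 7.35 and 8.03 at N2. H3K27ac was thus above Kcr in every condition. The difference as deposited was -1.47 in C0, -0.86 at N1 and -1.45 at N2. In peak3625 the Kcr ratios were 2.98 and 3.02 in C0, 1.42 and 1.36 at N1, and 1.95 at N2, and the H3K27ac ratios 9.04 and 9.31, 2.74 and 2.58, and 2.21 and 2.41. The gap of this region at N2 was -0.24 as deposited, against -1.61 in C0 (interaction, -1.37 ± 0.13, limma, adjusted p = 5.0e-08). In peak415 no excess of H3K27ac was left at N2, where the ratio was 1.63 for Kcr, against 1.44 and 1.54 for H3K27ac.

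Among the 8 regions with more Kcr, the difference in peak3473 with equal medians and spreads over the 11 libraries was 0.79 in C0, 0.27 at N1 and 0.07 at N2. In peak236 it was 0.66 in C0, 0.69 at N1 and 0.19 at N2, and the interaction with N1 was -0.03 ± 0.16. As deposited, the difference in peak236 was 0.76 in C0, 0.07 at N1 and 0.10 at N2, and the interaction with N1 was 0.69 ± 0.15 (limma, adjusted p = 0.00048), so that a change at N1 in this region was called on the deposited scale alone. These regions had been chosen for their difference in C0, so that a smaller one elsewhere follows in part from the choice.

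**Figure D5:**
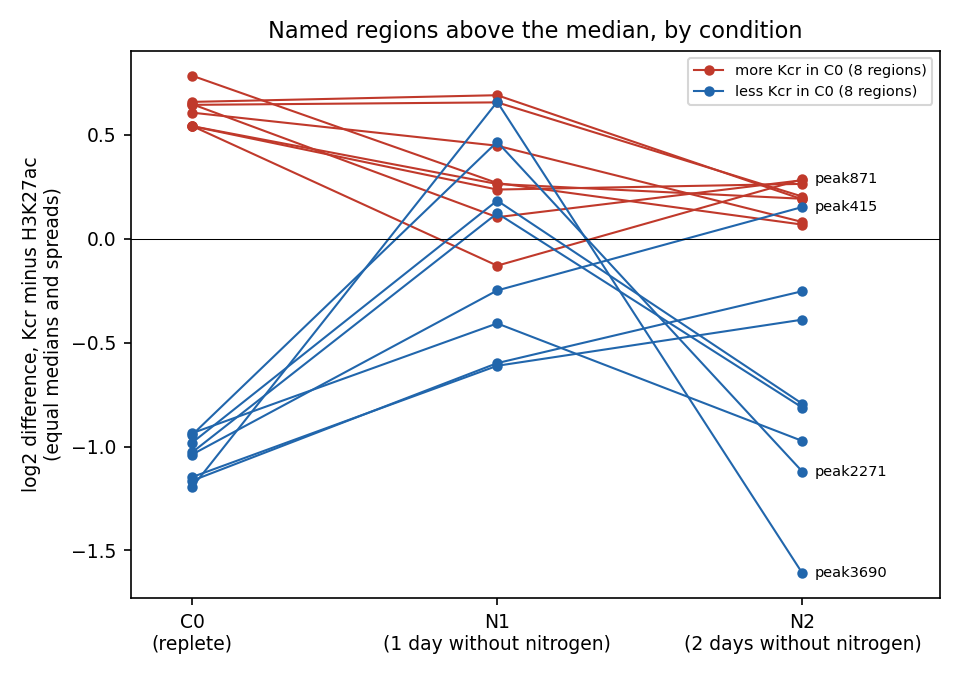
Log2 difference between Kcr and H3K27ac with the 11 libraries set to equal medians and spreads (y axis) in C0, N1 and N2 (x axis) for the 16 named regions above the median of mean enrichment, 8 with more Kcr (red) and 8 with less (blue) in C0. Of the blue regions, peak3690 goes from -1.20 in C0 to 0.66 at N1 and -1.61 at N2, whereas its deposited difference was negative in all 3 conditions.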

How the data were processed

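Per the labels, ChIP-seq of Kcr, H3K27ac and H3K36me2 was done in 2 libraries per mark and condition. The study's methods and the submitters' notes name Trim Galore, BWA, Picard, deepTools and MACS2, with peaks called against input. Tool versions and the merging of regions are not stated in the sources used here. A genome version is named for the Hi-C reads, and whether it holds for ChIP-seq is not stated, so coordinates are as the deposited tables give them. The authors deposited a coverage signal (pileup) and a local background (lambda) per region and library, not counts, so no count test was run. The 9 tables held the same values. All pileups were whole multiples of 1 step per library (tolerance, 0.05 steps). Columns of the authors' own comparisons between conditions (fold changes, p-values) and 36 columns of 12 other libraries were not used. Region IDs were not paired with genes here, since no annotation of the build was used.

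Enrichment was log2(pileup + 0.5) minus log2(lambda + 0.5), which understates changes of low values, and no filter was applied. Kcr minus H3K27ac was fitted with limma 3.58.1 in R 4.3.3 (limma-trend, 2 residual degrees of freedom, Benjamini-Hochberg over 3803 regions, adjusted p under 0.05), as deposited and with each library set to median 0 and the mean library SD. Interactions were fitted over all 6 groups, identical columns entering once. The design assumed a signal unit and was kept. Scripts were tested on simulated data. Regions were named by a rule: called in the same direction on both scales without overlap of libraries, the 8 largest differences each way above the median of mean enrichment and the 3 largest each way below it on the scale of equal medians and spreads, the 3 of highest mean enrichment called on neither scale, and the longest run each way. Regions from the classes with one mark alone and of highest ratio were named after their values were seen. The comparison and the classes were chosen with earlier results of these data known. Alternatives were other pseudocounts (1 and 5), a filter on low values, pileup alone, other scalings, all libraries in the fit, a replicate block, stricter thresholds and leaving out each library.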

Additional observations from a re-analysis of the deposited data

Results flagged for a closer look

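The difference between Kcr and H3K27ac changed with the condition by the interaction term of limma, with equal medians and spreads over 11 libraries. Between C0 and N1 it was higher in C0 in 152 regions and lower in 758, and between C0 and N2 higher in 186 and lower in 48. As deposited, the N1 split was 1393 and 319.

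Among the named regions, the interaction with N1 was positive in peak3473 (0.52), peak871 (0.67) and peak2834 (0.87). It was negative in peak3690 (-1.86), peak2271 (-1.41), peak1060 (-1.17), peak1526 (-1.15), peak2069 (-1.13), peak240 (-0.999), peak415 (-0.79), peak1297 (-0.59), peak1296 (-0.57), peak3625 (-0.57), peak2134 (-0.54), peak245 (-0.53) and peak1295 (-0.46). As deposited, it was -0.61 in peak3690, and it no longer passed the test in peak245 (-0.18), peak1295 (-0.02), peak1296 (-0.03) and peak1297 (-0.29).

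The interaction with N2 was positive in peak3473 (0.72), peak3601 (0.53) and peak3690 (0.41), and negative in peak415 (-1.19), peak2069 (-0.94), peak3625 (-0.91) and peak2134 (-0.76). As deposited, that of peak3690 was -0.02, so that its change at N2 rests on the scaling. All these regions were chosen with their difference in C0 in view.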

How the results depend on the processing

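The main counts were 2080 regions as deposited, 1653 with equal medians and spreads and 1464 on both. Above the median of mean enrichment they were 1192 (194 with more Kcr, 998 with less), 884 (407 and 477) and 667 (190 and 477), with fewer regions tested. At 2-fold or more they were 127, 78 and 52, and at an adjusted p under 0.01 the second was 1067. With all distinct libraries the second was 983 and the third 926. Quantile normalisation gave 1334 (662 and 672), and turned the deposited difference of peak2744 to 0.50, of peak2824 to 0.50 and of peak391 to 0.38, each past the threshold. The causes were not tested. Pileup alone gave splits of 1417 and 808 as deposited and 470 and 1195 with equal medians and spreads. Leaving out 1 library gave 1577 to 2158, 913 to 2060 and 878 to 1707 regions. The N1 interaction (910) gave 1712 as deposited (1393 higher, 319 lower in C0), 512 above the median and 503 to 977 without 1 library. The N2 interaction (234) gave 444, 375 and 111 to 270.

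Replicate numbers are shared by the marks, but deviations of same-numbered libraries correlated at r = -0.002 and no label ties a number to a culture. With the replicate block the counts were 2144, 1734, 1538, 908 and 208.

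The 22 regions named by size kept direction and call in all 516 values tried. They had been picked for large differences already called, so that this follows in part from the choice. Over all 35 named regions, 762 of 816 values kept both, 40 lost the call (all in peak1294, peak1297 and peak3649 to peak3652), 11 gained one and 3 turned (these 14 all in peak391, peak2744 and peak2824). Limits are 2 libraries per mark, 2 residual degrees of freedom, the shallower Kcr libraries of C0, and antibodies that labels and methods give differently. Without a scale common to both antibodies, a ratio of one mark cannot be read as more molecules than the other.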
